A study of Ovis aries with 2 samples.

Results

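Galanin-expressing lactotrophs were examined in single-cell RNA profiles of the anterior pituitary of Hu sheep. They were defined as barcodes with at least 500 detected genes and 5000 UMIs (unique molecular identifiers, each counting a captured transcript) and at least 25% of UMIs from PRL, the prolactin gene. GH, the growth hormone gene, had to stay under 10%, LHB, the luteinising hormone beta subunit, under 0.3%, and the 3 complement C1q genes together under 0.1%. At least 3 UMIs had to come from GAL, the galanin gene. The rule found 495 such cells among 7783 barcodes that met the lactotroph gate and 33992 barcodes in all. The members were chosen by these UMI counts of PRL, GAL and the other gate genes, so those levels are given as a description and were not tested.

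The study profiled sheep of 3 and 6 months of age, with 1 library for each age and the same dissociation for both. The anterior lobe was separated by its morphology, digested with collagenase, strained, treated to lyse red blood cells and partitioned in droplets. The labels used here do not say what sex the animals were or how many were pooled. Age and library therefore cannot be told apart. The p-values below rest only on how far these 2 libraries differ in the ratio tested, with that spread largely shared across genes.

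Lactotrophs make and secrete prolactin and are held back by hypothalamic dopamine acting on the D2 receptor, encoded by DRD2. Galanin is a neuropeptide that signals through the G protein-coupled receptors GALR1, GALR2 and GALR3. In rodents it is made by lactotrophs, where estrogen raises it, and it promotes prolactin secretion and lactotroph growth.

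The libraries held 18961 barcodes with a median of 4361 UMIs at 3 months and 15031 with a median of 7434 UMIs at 6 months. Of all barcodes, 81 had the same sequence in both libraries, among them 1 galanin-expressing cell, which was in the 3-month library and had 8 GAL UMIs. A doublet caller, Scrublet, marked 8.94% of the galanin-expressing and 8.21% of the galanin-zero gated cells at 3 months, and 1 of 14 and 5.50% at 6 months.

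Galanin-expressing cells were common among gated lactotrophs of the 3-month library and rare in the 6-month library. At 3 months 481 of 2402 gated cells had at least 3 GAL UMIs, a share of 20.02% (exact 95% Clopper-Pearson interval 18.4 to 21.7). At 6 months 14 of 5381 did, a share of 0.260% (0.142 to 0.436). These intervals, like all others here, are for counting error alone and leave out differences from animal to animal.

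A further 253 gated cells at 3 months and 40 at 6 months had 1 or 2 GAL UMIs, and 1668 and 5327 had none. The numbers at the threshold were 85 and 9 cells with exactly 2 GAL UMIs just outside it, and 34 and 3 cells with exactly 3 just inside. At 3 months 3 cells with enough GAL missed the gate at 20 to 25% PRL and 1 was inside it at 25 to 30%, with none of either kind at 6 months. Nearly all deep barcodes with 3 or more GAL UMIs met the lactotroph gate, namely 481 of 512 at 3 months and 14 of 16 at 6 months. Of all deep barcodes, 28.2% met it at 3 months and 58.5% at 6 months.

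The libraries also differed in share at equal depth. When every gated cell was thinned to 5000 UMIs, at least 1 GAL UMI was found in 20.9% of cells at 3 months and in 0.353% at 6 months, against 30.6% and 1.00% before thinning. At least 3 remained in 11.7% and 0.112%. Endothelial cells, which should lack the gene, carried at least 1 GAL UMI in 2.42% of 1856 cells at 3 months (median depth 2811 UMIs) and in 0 of 374 at 6 months (median 3389.5), which allows a share of up to 0.802%. Macrophages did so in 2.43% of 1401 and 0.429% of 1399 cells. After the same thinning the background was 2.02% of 396 endothelial cells and 2.26% of 399 macrophages at 3 months, and 0 of 117 and 0.673% of 594 at 6 months. The 3-month share in lactotrophs lay far above this background, whereas at 6 months the thinned share was not above that of macrophages. At 3 or more UMIs, the threshold used here, the background was 1 of 1856 endothelial cells and 2 of 1401 macrophages at 3 months, and 0 of 374 and 1 of 1399 at 6 months.

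GAL itself stood at 357 CPM (counts of the gene's UMIs scaled by the summed UMIs of the same cells) over all gated cells of the 3-month library and at 4.18 CPM at 6 months, an 85.6-fold difference (78.1 to 94.1). The galanin-expressing cells held 91.0% of all GAL UMIs of the 3-month library and 80.7% of those of the 6-month library. Within them the level spread widely. At 3 months the cells carried 3 to 553 GAL UMIs with a median of 17, and the 48 cells with most GAL held 46.2% of the GAL UMIs of the 481. At 6 months the 14 cells carried 3, 3, 3, 4, 5, 6, 10, 14, 18, 48, 58, 67, 80 and 98 GAL UMIs. The highest cells of the 6-month library therefore overlapped the upper range of the 3-month library.

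**Figure D1:**
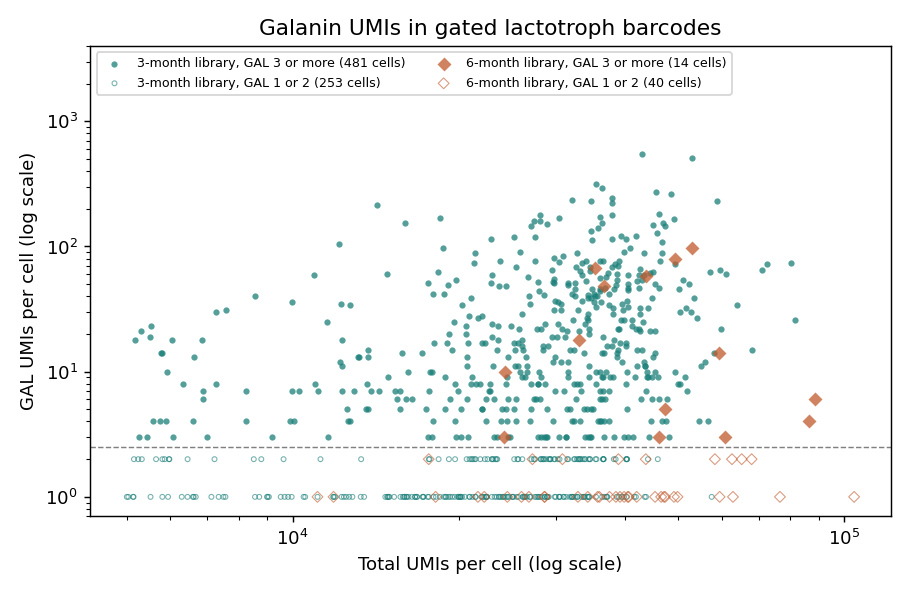
GAL UMIs against total UMIs (both on log scales) for every gated cell with at least 1 GAL UMI, with the 3-month library as circles and the 6-month library as diamonds; filled symbols lie above the dashed line that marks the threshold of 3. The 14 cells of the 6-month library carry 3 to 98 GAL UMIs, within the 3 to 553 of the 3-month library.

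The median galanin cell was deeper and richer in prolactin transcript than the median gated cell without GAL. Both classes were set by a fixed number of GAL UMIs, which deeper cells reach more easily, and the part of this in the depth gap was not tested. Their median depth was 31530.0 UMIs at 3 months and 46744.5 at 6 months, against 17894 and 18417 for gated cells without GAL. PRL took a median of 63.0% and 65.1% of their UMIs, against 48.2% and 48.9%. At 3 months the share of galanin-expressing cells was 9.75% at 5000 to 10000 UMIs, 7.47% at 10000 to 20000, 17.5% at 20000 to 30000, 44.8% at 30000 to 40000 and 78.1% above that. The GAL level over all cells of each of these depth classes was 191, 126, 213, 577 and 913 CPM in the same order. At 6 months no cell under 20000 UMIs was a member, and 2.99% of 301 cells above 40000 were. By PRL share the 3-month values were 1.81% at 25 to 40% PRL, 4.42% at 40 to 50%, 19.2% at 50 to 60%, 46.4% at 60 to 70% and 37.2% above that, and at 6 months 4.49% of the 89 cells above 70% PRL were members.

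**Figure D2:**
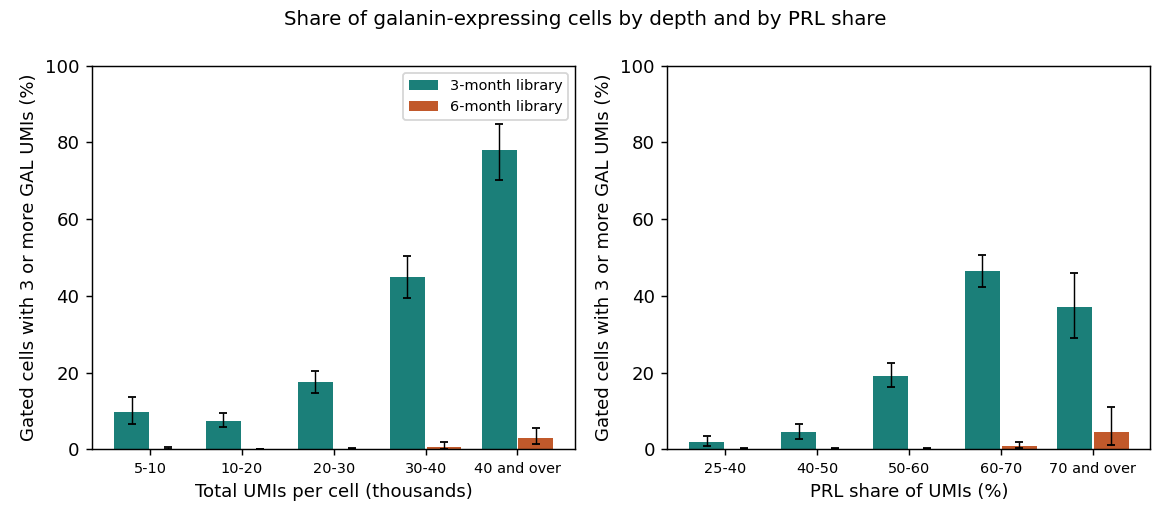
Percent of gated cells with 3 or more GAL UMIs by total UMIs per cell (left) and by PRL share of UMIs (right), with exact 95% intervals as lines. At 3 months the share reached 78.1% above 40000 UMIs and 46.4% at 60 to 70% PRL, while at 6 months every class stayed under 5%.

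Lactotroph markers that the rule did not use were higher in the galanin cells than in barcodes outside the gate. They were chosen with earlier results of these data known, so the values are a description. Gated cells without GAL, the cells most like them, are compared further below. DRD2 stood at 132 and 135 CPM in the 3-month galanin cells with the lower and the higher GAL share of UMIs, split at their median, and at 12.8 CPM in barcodes of the same minimum depth outside the gate. POU1F1, the pituitary transcription factor that drives PRL, stood at 212 and 238 against 60.05 CPM. LY6D, a membrane-anchored surface protein, stood at 239 and 306 against 70.2 CPM, and MOXD1, a monooxygenase of the dopamine beta-hydroxylase family, at 67.1 and 105 against 3.67 CPM. At 6 months the same order held for these 4 genes, with DRD2 at 90.4 and 139.8 against 37.4 CPM. Values of the galanin cells here use edgeR's TMM scaling, and values outside the gate use UMI totals.

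Receptors for galanin were hardly detected in the gated cells. GALR1 gave 2 UMIs, both in a single galanin-expressing cell at 3 months, and none at 6 months. GALR2 gave 0 UMIs, which allows a share of cells with a UMI of up to 0.125% of 2402 gated cells at 3 months and 0.0558% of 5381 at 6 months. GALR3 was found in 15 gated cells at 3 months, 3 of them galanin-expressing, and in 26 at 6 months, none of them galanin-expressing.

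To ask which other genes went with galanin, galanin cells were set against gated cells with no GAL UMI from the same library, matched 1 to 1 on total UMIs. Matches were found for 406 of 481 cells at 3 months, which left the deepest cells under-represented, and for all 14 at 6 months. Median depths were then 28591 and 27797.5 UMIs at 3 months and 46744.5 and 46766 at 6 months. PRL still differed, with medians of 62.7% against 56.3% and 65.1% against 56.6%. Counts were summed per library and class and tested with edgeR's quasi-likelihood test with library as a term and Benjamini-Hochberg adjustment. CPM in this comparison use edgeR's TMM scaling, and all log2 ratios are galanin cells over galanin-zero cells.

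Of 10239 genes tested, 98 (0.957%) were higher and 36 (0.352%) lower in galanin cells at an adjusted p under 0.05, together 1.31%. Of the 134, 124 had a ratio in both libraries, and 122 of these pointed the same way. The 6-month sums came from 14 cells a class, and 79 of the 134 genes had fewer than 50 UMIs there. The calls rest on little replication: DESeq2 on the same sums called 14 higher and 1 lower, and edgeR without the library term called 0 in either direction, with 121 higher and 65 lower at an unadjusted p under 0.05. When the galanin-zero cells were matched on PRL share as well as depth, a comparison added after seeing the data, 36 genes were higher and 5 lower. It used fewer galanin cells, 369 at 3 months and 13 at 6 months, and its spread was shared less across genes. A gene could therefore lose its call there without a smaller ratio.

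By size alone, 127 of 10121 measured genes (1.25%) were higher and 92 (0.909%) lower by 2-fold or more at 3 months, and 30 (1.6%) and 27 (1.44%) of 1876 at 6 months. In both libraries at once, 4 of 1873 genes (0.214%) were higher, ABRACL, SDF2L1, NPW and VGF, and 2 (0.107%) lower, PCP4 and ACTA1. UMI totals without TMM shifted the median of all genes to −0.23 on the log2 scale and turned the split of edgeR calls to 73 higher and 294 lower, so directions below are relative to the bulk of genes.

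Several genes of the regulated secretory pathway were higher in galanin cells. Of 25 tested genes for prohormone processing and secretory granules, 7 were higher (VGF, SCG2, SCGN, RESP18, CHGA, PTPRN and PAM) and 0 lower, but the list's median of 0.09 was close to the −0.01 of all genes. With PRL share matched, 3 of 24 were higher and 0 lower, without CHGA, PTPRN and PAM (edgeR adjusted p 1.00, 0.48 and 0.89), and DESeq2 called 4 higher. VGF, a granin-like precursor of secreted peptides, stood at 307 CPM in galanin cells and 102 CPM in galanin-zero cells at 3 months, and at 207 and 31.2 CPM at 6 months. Its log2 ratio was 1.59 (1.49 to 1.68) at 3 months and 2.73 (2.09 to 3.44) at 6 months, and the fit gave 1.86 ± 0.17 (SE), edgeR adjusted p 5.1e-11. VGF was higher in both libraries by more than its counting interval, and with PRL share matched it was still at 1.43 (edgeR adjusted p 7.1e-04).

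SCG2, or secretogranin II, a structural protein of dense-core granules, stood at 1874 against 771 CPM at 3 months and 963 against 613 CPM at 6 months (fit 0.99 ± 0.14). SCGN, the calcium sensor secretagogin, stood at 222 against 85.7 CPM and at 28.3 against 4.07 CPM (fit 1.45 ± 0.17), the 6-month values being 18 and 3 UMIs. RESP18, an endocrine secretory protein of the lumen of the pathway, stood at 91.97 against 25.9 CPM and 37.7 against 17.6 CPM (fit 1.73 ± 0.19). All 3 genes were higher in both libraries, and SCG2 no longer passed with PRL share matched (0.57, edgeR adjusted p 0.16). CHGA, chromogranin A, passed on the strength of the 6-month library, at 279.6 against 60.98 CPM, while at 3 months it stood at 1165 against 1090.3 CPM, a ratio of 0.10.

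The other granule genes tested did not pass. PCSK1N, an inhibitor of prohormone convertase 1, stood at 622 against 797 CPM at 3 months (fit −0.38, edgeR adjusted p 0.19). CPE, the carboxypeptidase that trims prohormones, stood at 127 against 142 CPM (fit −0.24), and the docking protein gene SNAP25 at 66.9 against 74.1 CPM (fit −0.06). The next closest to passing was SCG3, secretogranin III, at 1122 against 772 CPM (fit 0.46, edgeR adjusted p 0.055).

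Other secreted peptides were also higher, with TAC1 the call among 3 tested genes of a further neuropeptide list. NPW, the precursor of neuropeptide W, stood at 189 against 93.8 CPM at 3 months and 56.6 against 21.7 CPM at 6 months (fit 1.06 ± 0.16, edgeR adjusted p 1.7e-05; 0.087 with PRL share matched). TAC1, the precursor of substance P and neurokinin A, stood at 37.6 against 17.01 CPM and 42.4 against 4.07 CPM (fit 1.36 ± 0.23), but its 27 UMIs in the 6-month galanin cells came from 2 cells. POMC, the precursor of ACTH, had a fit of 1.29 ± 0.23, yet a single cell held 65.8% of its UMIs in the 3-month galanin cells, and with a gate of 15% PRL the ratio was −0.09.

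Some endoplasmic reticulum chaperones were higher in galanin cells. Of 24 tested genes for the endoplasmic reticulum and the unfolded protein response, 8 were higher and 0 lower, 23 had a positive fitted ratio, and the median was 0.41. Over all tested genes 0.957% were called higher and 49.0% had a positive fitted ratio. With PRL share matched, 0 of 24 passed (6 higher at an unadjusted p under 0.05) and the median was 0.21. DESeq2 called 2 higher.

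HSPA5, the chaperone BiP, stood at 2223 against 1529.5 CPM at 3 months and 2845 against 1514 CPM at 6 months (fit 0.72 ± 0.12, edgeR adjusted p 1.3e-04). SDF2L1, a component of an ER chaperone complex, showed the largest fitted ratio of the list, 269.7 against 117 CPM and 393 against 165 CPM (fit 1.22 ± 0.14). CRELD2 stood at 155 against 77.4 CPM and 199.5 against 121 CPM. These 3 genes were higher in both libraries, with similar ratios for SDF2L1, 1.21 and 1.25. With PRL share matched SDF2L1 was at 0.46 (edgeR adjusted p 0.4), below HYOU1 at 0.64 and PDIA4 at 0.55. HSP90B1, MANF, DNAJB9, PDIA4 and HYOU1, chaperones or folding factors of the same compartment, had fitted ratios of 0.57, 0.59, 0.54, 0.86 and 0.92. XBP1 and DDIT3, transcription factors of the unfolded protein response, did not pass, at 0.22 and 0.11.

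**Figure D3:**
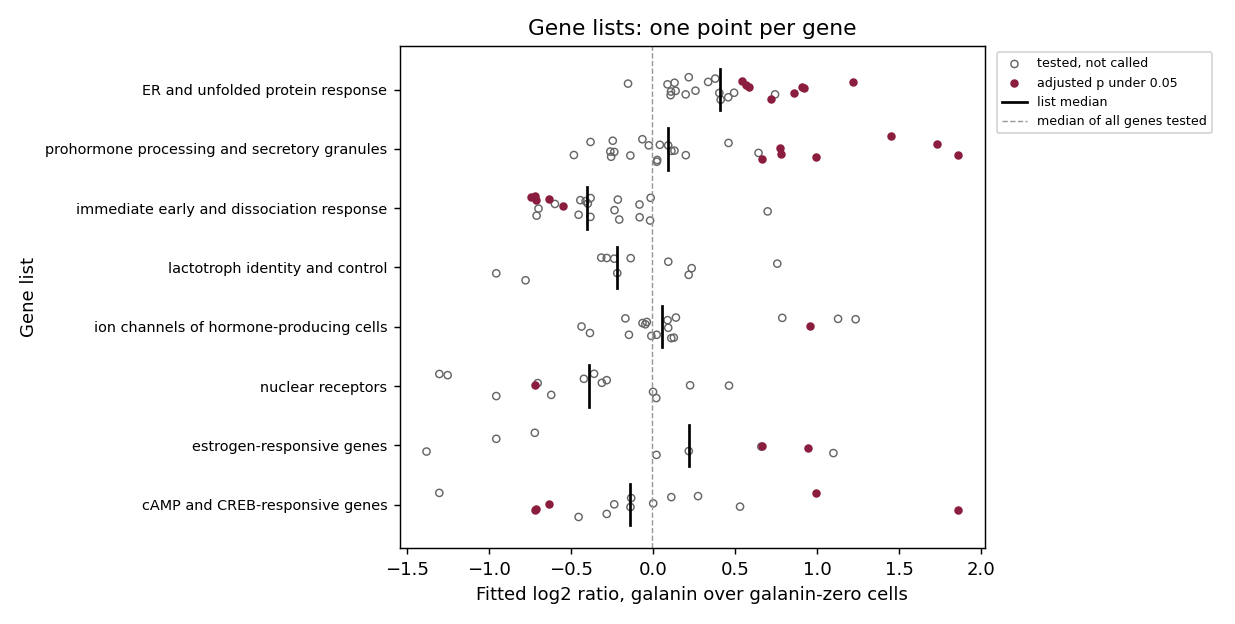
Fitted log2 ratio of each tested gene (points) in 8 gene lists, galanin over matched galanin-zero cells, with filled points at an edgeR adjusted p under 0.05, black bars at list medians and a dashed line at the median of all genes. The ER list sits to the right at a median of 0.41, the early response list to the left at −0.40, and the granule list spreads around 0.09 with 7 filled points.

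Genes of lactotroph identity and control did not pass. Of 11 tested, 0 were called in either direction by edgeR or DESeq2 (2 lower at an unadjusted p under 0.05 in edgeR), with a median of −0.22. Over all tested genes edgeR called 1.31%, so 0 of 11 does not set this list apart. DRD2 stood at 136 against 115 CPM at 3 months and 107 against 126 CPM at 6 months, so its ratio had opposite signs (0.24 and −0.24; fit 0.09 ± 0.15, edgeR adjusted p 1.00). The fitted sign turned to −0.12 without TMM and with all galanin-zero cells. LY6D, a marker outside this list, did not pass, at 261 against 203 CPM and 162 against 103 CPM (fit 0.46 ± 0.15, edgeR adjusted p 0.16). MOXD1, also outside this list, did pass, at 82.5 against 35.8 CPM and 36.1 against 8.13 CPM (fit 1.29 ± 0.19, edgeR adjusted p 8.0e-06).

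ESR1, estrogen receptor alpha, stood at 7.31 against 13.5 CPM at 3 months and 4.71 against 13.6 CPM at 6 months (fit −0.95 ± 0.30, edgeR adjusted p 0.13), lower in value in both libraries without passing. TRHR, the thyrotropin-releasing hormone receptor, stood at 18.4 against 33.9 CPM and 17.3 against 17.6 CPM (fit −0.78, edgeR adjusted p 0.06). Among 9 tested estrogen-responsive genes, 2 were higher and 0 lower, with a median of 0.22. They were AGTR1, the angiotensin II type 1 receptor (fit 0.95 ± 0.24), and the cyclin gene CCND1 (fit 0.67 ± 0.17). Neither passed with PRL share matched, where their ratios were 0.71 and 0.64. Of 6 tested receptors for hypothalamic factors and neuropeptides, 0 were called by edgeR (0 higher and 1 lower at an unadjusted p under 0.05) or DESeq2. With 1.31% of all tested genes called by edgeR, 0 of 6 does not set these receptors apart.

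Immediate early genes are induced within minutes by stimuli that include tissue dissociation. Of 22 tested, 5 were lower in galanin cells (FOS, FOSB, JUNB, NR4A1 and DUSP1) and 0 higher, with a median of −0.40. With PRL share matched, 1 of 21 was higher and 0 were lower (1 at an unadjusted p under 0.05) and the median was 0.05, and DESeq2 called 0 (4 lower at an unadjusted p under 0.05). FOS, an AP-1 subunit, stood at 398 against 705 CPM at 3 months and 255 against 392 CPM at 6 months (fit −0.74 ± 0.14, edgeR adjusted p 5.4e-04). NR4A1, an orphan nuclear receptor, stood at 87.1 against 129.8 CPM and 73.8 against 156 CPM (fit −0.72 ± 0.15). Outside the gate, deep barcodes of the 3-month library held 7453 CPM of FOS and 362 CPM of NR4A1, and the part of RNA from such cells in these differences was not tested. FOSB turned to 0.30 with PRL share matched. JUN and ATF3, from the same list, had opposite signs in the libraries, −0.67 and 0.70 for JUN and −0.70 and 0.67 for ATF3.

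Further lists had few calls, and mostly of genes already named. Of 15 tested cAMP-responsive genes, 2 were higher (VGF and SCG2) and 3 lower (FOSB, NR4A1 and DUSP1). Of 14 tested nuclear receptors, 0 were higher and NR4A1 was lower. Of 12 tested interferon and antigen presentation genes, 0 were called by edgeR (0 higher and 4 lower at an unadjusted p under 0.05) or DESeq2. The edgeR share over all tested genes was 1.31%, so 0 of 12 does not set them apart. Of 7 tested cell cycle genes, 0 were higher and UBE2C was lower.

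By the rule for naming genes, IGFBP6 led the higher genes, ranked by the smaller of the ratios of the 2 libraries. IGFBP6, which binds insulin-like growth factor II, stood at 325 against 79.6 CPM at 3 months and 51.8 against 9.49 CPM at 6 months (fit 2.07 ± 0.17, edgeR adjusted p 4.1e-12). PHLDA1, a pleckstrin homology-like domain protein, stood at 63.4 against 16.5 CPM and 32.99 against 9.49 CPM (fit 1.93 ± 0.21). GPAT3, a glycerol-3-phosphate acyltransferase of lipid synthesis, stood at 22.02 against 6.51 CPM and 26.7 against 5.42 CPM (fit 1.82 ± 0.26). Each was higher in both libraries and passed with PRL share matched. At 6 months the values for IGFBP6, PHLDA1 and GPAT3 rest on 33 against 7, 21 against 7 and 17 against 4 UMIs. A single cell held 45.5%, 47.6% and 23.5% of these in galanin cells, and 57.1%, 85.7% and 75% in galanin-zero cells.

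ABRACL, a small actin-associated protein, stood at 309 against 128 CPM and 75.4 against 18.97 CPM (fit 1.38 ± 0.17). Among the remaining higher genes of the rule, GAP43, a growth cone protein, was fitted at 1.76, the EF-hand protein gene S100A2 at 1.38, the secreted factor METRNL at 1.28 and VWA5A at 1.31. Each of these 4 had at most 17 UMIs in the 6-month galanin cells, and S100A2, METRNL and VWA5A were higher outside the gate at 3 months, at 169, 119 and 34.7 CPM. At 6 months IGFBP6, PHLDA1 and ABRACL were also higher outside the gate, at 91.01, 119 and 114 CPM. With PRL share matched, S100A2, VWA5A and ABRACL passed. GAP43 and METRNL did not (edgeR adjusted p 0.056 and 0.12), though their ratios there were 1.44 and 1.45. IGFBP5, another binding protein for insulin-like growth factors and the single call among 15 tested genes for growth factor signalling, stood at 176 against 95.3 CPM and 143 against 54.2 CPM (fit 1.02 ± 0.15). KCNH2, a potassium channel gene, was the single call among 18 tested ion channel genes (fit 0.96 ± 0.21) and did not pass with PRL share matched (0.69, edgeR adjusted p 0.22).

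TPSB2 and RGS5 had the largest ratios among the higher named genes, and both are best known from other cells. TPSB2, a tryptase of mast cells, stood at 90.8 against 11.7 CPM at 3 months, with 8 and 0 UMIs at 6 months (fit 2.99 ± 0.23). Its count is uncertain, since tryptase genes are near-identical copies. RGS5, a regulator of G protein signalling used as a marker of mural cells, stood at 143 against 32.02 CPM at 3 months, with 7 and 0 UMIs at 6 months (fit 2.20 ± 0.20). Both genes were lower outside the gate than in galanin cells, with TPSB2 at 1.03 CPM and RGS5 at 5.46 CPM in deep 3-month barcodes there, and no 3-month galanin cell held over 3.13% of the TPSB2 or 3.98% of the RGS5 UMIs of the class.

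Markers of other cell types were summed beside these genes. The 10 fibroblast and mural markers made up 0.0171% of UMIs in 3-month galanin cells, 0.00576% in matched galanin-zero cells and 0.0248% outside the gate. RGS5 itself is on this list, and without it the sums were 0.00381%, 0.00229% and 0.0242%, with PDGFRA and PDGFRB at 0 in galanin cells. Of 5 tested, RGS5 and the matrix proteoglycan gene DCN were higher, while the collagen gene COL1A2 stood at 4.75 against 4.86 CPM. At 6 months the sums were 0.00131% and 0.000291%. The 10 endothelial markers made up 0.00488% and 0.00628% at 3 months, and 0.000145% and 0.0221% at 6 months, where 9 of 10 were at 0 in galanin cells. Their part in the results was not tested. Gonadotroph markers made up 0.0308% and 0.0498% at 3 months and 0.00930% and 0.0142% at 6 months, and the T, NK and B cell markers, of which CD3G was called higher, 0.00397% and 0.00257% at 3 months and 0.00726% and 0.0125% at 6 months.

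Lower genes included PCP4 and RBP4. PCP4, a calmodulin-binding protein, stood at 16.4 against 47.8 CPM at 3 months and 20.4 against 59.6 CPM at 6 months (fit −1.54 ± 0.20, edgeR adjusted p 1.1e-06). RBP4, a retinol carrier, stood at 12.4 against 40.2 CPM and 17.3 against 39.3 CPM (fit −1.61 ± 0.22). Both were lower in both libraries and passed with PRL share matched, and both were higher outside the gate, at 183 CPM for PCP4 and 216 CPM for RBP4 at 3 months. ACTA1, skeletal muscle alpha-actin, stood at 51.1 against 115 CPM and 17.3 against 89.4 CPM (fit −1.35 ± 0.17, edgeR adjusted p 6.9e-07). It was the 1 lower gene that DESeq2 called, and with PRL share matched its edgeR adjusted p was 0.22. An ACTA1 UMI was found in similar shares of matched 3-month cells, 33.5% of galanin and 34.5% of galanin-zero cells. At 6 months ACTA1 had 11 and 66 UMIs, with 54.5% and 39.4% of them in a single cell. GNB3, a G protein beta subunit called outside the naming rule and chosen after its values were seen, stood at 9.49 against 42.8 CPM and 45.6 against 75.9 CPM (fit −1.75 ± 0.23), and passed with PRL share matched.

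KCNB2, a voltage-gated potassium channel, was fitted at −2.02 and CAPSL, a calcyphosine-like protein, at −2.39, each on at most 3 UMIs in the 6-month galanin cells. BAIAP3, a protein of dense-core vesicle trafficking, was fitted at −1.08, the activity-dependent transcription factor NPAS4 at −1.58, the small heat shock protein HSPB8 at −0.99 and the RNA-binding proteins CPEB1 and MBNL3 at −1.02 and −1.38. RCAN2, a calcineurin regulator, was fitted at −1.36, the adhesion molecule NECTIN3 at −1.03 and SMIM18 at −1.31. With PRL share matched SMIM18 passed (edgeR adjusted p 0.023). KCNB2, CAPSL, BAIAP3, NPAS4, HSPB8, CPEB1, MBNL3, RCAN2 and NECTIN3 did not, with edgeR adjusted p from 0.069 for BAIAP3 to 0.96 for HSPB8. Their ratios there ran from −0.51 for HSPB8 to −1.98 for CAPSL. UBE2C, a mitotic ubiquitin-conjugating enzyme, headed the lower genes at −4.52, but its 189 UMIs in 3-month galanin-zero cells came from 6 cells, 91.0% of them from a single cell. CKS2, a subunit of cyclin-dependent kinases, was fitted at −0.97 and turned to 0.23 with all galanin-zero cells. A single galanin-zero cell held 42.6% of its UMIs in that class at 3 months and 74.1% at 6 months, and with PRL share matched its edgeR adjusted p was 1.00.

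**Figure D4:**
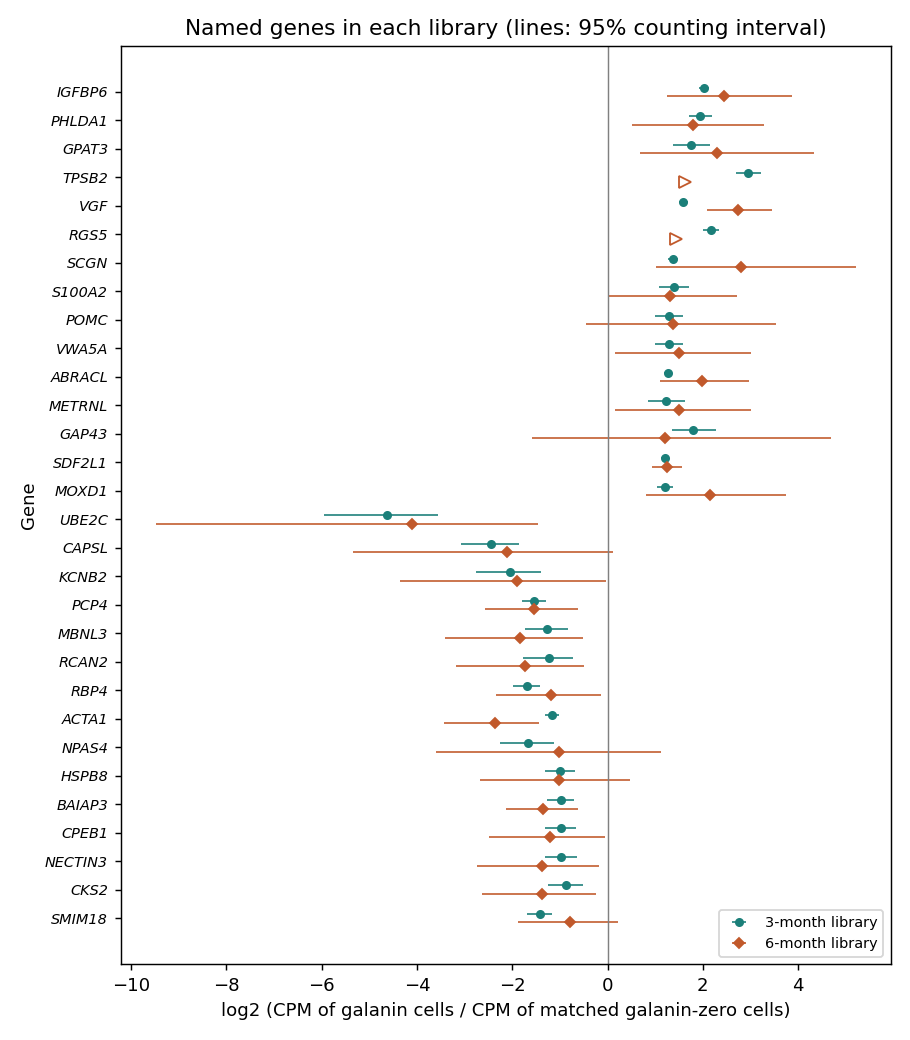
Log2 ratio of summed CPM, galanin over matched galanin-zero cells, for the 15 higher and 15 lower genes of the naming rule, in the 3-month (circles) and 6-month library (diamonds), with exact 95% counting intervals as lines and open triangles for lower bounds where galanin-zero cells had 0 UMIs. All 30 ratios have the same sign in both libraries, as the rule required, and the 6-month intervals are the wider ones, crossing 0 for POMC and GAP43 among others.

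Within the 3-month library, some of these genes were laid out by the GAL level of the cells. Most had been chosen for differing between galanin cells and cells without GAL, so that step is no further support. The gated cells were divided into 1668 with no GAL, 253 with 1 or 2 GAL UMIs, and 240 and 241 galanin cells with the lower and the higher GAL share of UMIs. These classes were not matched for depth or PRL share. Their median depth was 17894, 23421, 31510.5 and 31530 UMIs in the order given. Their median PRL share was 48.2, 58.1, 63.0 and 63.1%, and the part of either was not tested. CPM here use edgeR's TMM scaling within the library, which set the size of the class without GAL at 36893822 for 30857017 UMIs. VGF stood at 76.3, 167, 232 and 368 CPM in that order, and IGFBP6 at 52.7, 151, 248 and 393 CPM. PCP4 ran the opposite way, at 67.9, 33.6, 19.6 and 12.99 CPM. Cells with 1 or 2 GAL UMIs thus lay between the cells without GAL and the galanin cells for these genes.

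SCG2 stood at 584, 1102, 1501 and 2289 CPM and SDF2L1 at 82.05, 171, 265 and 322 CPM. HSPA5 levelled off, at 1320.0, 1800.3, 2288 and 2311 CPM. FOS had no order beyond the cells without GAL, at 804, 417, 498 and 377 CPM. DRD2 was flat on this scaling, at 129, 126, 132 and 135 CPM.

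**Figure D5:**
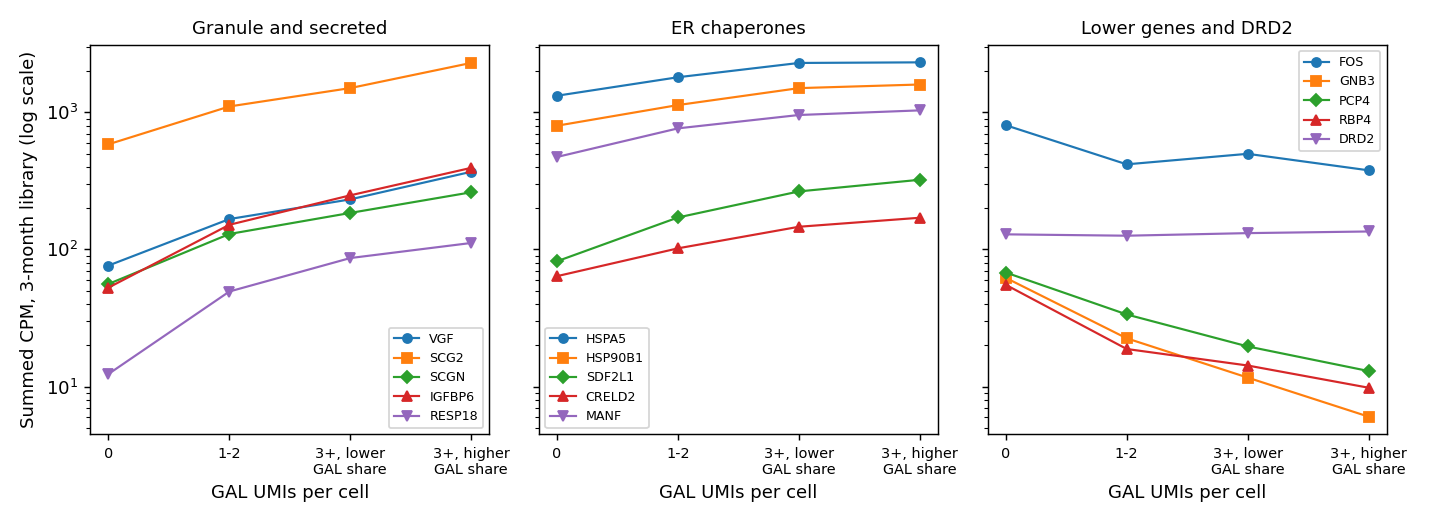
Summed CPM (log scale, TMM scaling) in gated cells of the 3-month library with 0, 1 to 2, and 3 or more GAL UMIs, the last divided by GAL share of UMIs, for granule and secreted genes (left), ER chaperones (middle) and lower genes with DRD2 (right). VGF runs from 76.3 to 368 CPM and PCP4 from 67.9 down to 12.99 CPM, while DRD2 stays between 126 and 135 CPM.

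Galanin cells of the 6-month library were then set beside those of the 3-month library, all 14 against all 481. No test could be made of this, each age being a single library. GAL stood at 606 CPM in the 6-month and 1219.7 CPM in the 3-month galanin cells on UMI totals, and PRL took 63.0% and 62.5% of their UMIs. Of 6780 measured genes, 193 (2.85%) were higher and 565 (8.33%) lower at 6 months by 2-fold or more. The ratio in the matched galanin-zero cells is given beside that of the galanin cells, and the difference between these ratios was not tested.

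The 10 higher genes of the naming rule were HSPA1A, BAG3, RGS1, GNB3, DNAJB1, HSPB1, GADD45B, SRGN, DIRAS3 and CHAC1. HSPA1A, an inducible heat shock protein 70 whose near-identical copies can share counts, stood at 348 CPM at 6 months and 49.7 CPM at 3 months. Its log2 ratio was 2.80 (2.59 to 3.02), and matched galanin-zero cells gave 2.47. The co-chaperone genes BAG3 and DNAJB1 were at 2.64 and 1.78 in galanin cells and at 1.16 and 0.71 in galanin-zero cells. HSPB1, a small heat shock protein, was at 1.76 and 0.85, and GADD45B, a stress-response gene, at 1.90 and 1.43. GNB3 was at 2.37 and 0.82, and CHAC1, a glutathione-degrading enzyme, at 1.72 and −0.12. RGS1 and SRGN, a G protein regulator and a granule proteoglycan best known from leukocytes, were at 2.94 and 2.00 in galanin cells and higher still in galanin-zero cells, at 5.52 and 3.77. A single cell held 83.9% of the RGS1 UMIs of the 6-month galanin-zero cells and 46.4% of those of the galanin cells. DIRAS3, a RAS-related GTPase, was at 1.65 and 1.11.

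The 10 lower genes of the rule divided by what the galanin-zero cells showed. SCGN, IGFBP6, RGS5, DCN, NRGN and ISG15 were lower at 6 months in both classes. SCGN stood at 26.1 CPM at 6 months and 203 CPM at 3 months in galanin cells (−2.96, −3.71 to −2.30) and at 4.38 and 92.6 CPM in galanin-zero cells (−4.40). IGFBP6 stood at 47.8 and 291 CPM in galanin cells (−2.61) and at 10.2 and 85.9 CPM in galanin-zero cells (−3.07). RGS5 stood at 10.1 and 129 CPM (−3.67, −4.98 to −2.62), and ISG15, an interferon-induced ubiquitin-like protein, at 17.4 and 110.4 CPM (−2.67; galanin-zero cells −2.91). ANGPT1, the Tie2 ligand angiopoietin 1, was at −3.28 in galanin cells and −0.60 in galanin-zero cells, and the small heat shock protein CRYAB at −3.81 and −0.43, on 5 and 2 UMIs in the 6-month galanin cells. NRGN, the calmodulin-binding protein neurogranin, was at −3.04 and −3.86, and DCN had 0 UMIs at 6 months in both classes. CLEC3B, or tetranectin, and PLVAP, an endothelial vesicle protein, had 0 UMIs in the 6-month galanin cells and 34.7 and 19.5 CPM in the 3-month ones, which puts the ratios at −3.00 and −2.16 or below. Galanin-zero cells had positive values for these 2, at 0.44 and 1.77, with 89.7% and 71.6% of the 6-month UMIs in a single cell.

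VGF and the ER chaperones differed less between the ages than the genes of the rule, which had been picked for large differences. VGF stood at 191 CPM at 6 months and 272 CPM at 3 months in galanin cells (−0.51), against 33.6 and 110.3 CPM in galanin-zero cells (−1.72). HSPA5 was at 0.32 and SDF2L1 at 0.44 in galanin cells. Of 22 measured ER genes, 0 were 2-fold higher and 1 was 2-fold lower, with a median of 0.17 against 0.31 in galanin-zero cells. Over all measured genes 2.85% were higher and 8.33% lower, so these counts do not set the ER list apart. The median over all tested and measured genes was −0.05 in galanin cells.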

How the data were processed

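Raw UMI counts per gene and barcode, as the authors deposited them for 2 droplet libraries, were the input. The submitters' processing notes name Cell Ranger 5.0.0, the matrix headers name 5.0.1, and which genome build and annotation served is stated in neither. The barcode and feature lists the authors deposited hold other, non-numeric entries. Of 23141 gene identifiers, 22726 matched RefSeq's gene table for ARS-UI_Ramb_v3.0, used for names only, which replaced 447 placeholder symbols.

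Galanin cells were matched without replacement to galanin-zero cells of the same library, deepest first, by log10 total UMIs within 0.05. Summed counts of genes with at least 20 UMIs in at least 2 of the 4 sums were tested with edgeR 4.0.16 (TMM, quasi-likelihood, library as a term, Benjamini-Hochberg adjustment, threshold 0.05). The design leaves 1 residual degree of freedom, so the spread is largely shared across genes (prior degrees of freedom 43.8). On simulated counts for this comparison with 10294 genes tested, all 50 genes raised by 2 and all 50 genes lowered by 2 on the log2 scale were called, 42 of 50 at 1 and 32 of 50 at −1, and 2 of 10094 unchanged genes. The changed genes had higher counts than the test required. All counts were drawn at a common dispersion, without UMIs gathered in single cells. These rates therefore do not carry over to genes with few UMIs or with UMIs from few cells. Within a library and between ages no test was run: log2 ratios carry exact conditional binomial 95% intervals, calls needed 2-fold and at least 50 (within a library) or 100 (between ages) summed UMIs, and a sum of 0 was set to a floor of 3 counts per sum, which makes a ratio a bound.

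Named genes were the 15 higher and 15 lower with the largest smaller-of-both-libraries ratio among called genes of the same sign in both, without placeholder symbols, called list members, the marker genes, and for age the 10 in each direction by the interval bound nearer to 0. The members, gene lists and markers were chosen with earlier results of these data known. Endothelial cells and macrophages serving as background were taken by their markers. Doublets were marked with Scrublet (through scanpy 1.11.5) and kept, their removal being an alternative. Alternatives changed scaling, filter, tool (DESeq2 1.42.0), matching, depth and gate.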

Additional observations from a re-analysis of the deposited data

Results flagged for a closer look

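Of 8542 tested genes with a ratio in both libraries, 3826 (44.8%) had opposite signs in them. Those given here are examples. With 1 library for each age the difference between libraries was not tested, and the 6-month values come from 14 cells a class. DRD2, the dopamine D2 receptor gene, was at 0.24 on the log2 scale at 3 months and −0.24 at 6 months, and POU1F1 at 0.05 and −0.46. SPP1, the osteopontin gene, was at 1.29 and −1.25, with 4 and 11 UMIs at 6 months, and CRYBB1, a crystallin gene, at 0.98 and −0.79, with 4 and 8 UMIs. Both of these had passed the edgeR test over both libraries. JUN was at −0.67 and 0.70, and ATF3 at −0.70 and 0.67. CHGB, chromogranin B, was at 0.41 and −0.27. GHRHR, the receptor for growth hormone-releasing hormone and the tested somatotroph marker, was at −1.10 and 3.02, with 7 and 1 UMIs at 6 months.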

How the results depend on the processing

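The share of galanin cells stayed far higher at 3 than at 6 months under every gate tried. It was 17.4% at 3 months with GAL of at least 5 UMIs, 12.99% with at least 10, 22.6% with PRL of at least 35% and 11.7% after thinning, and 0.112% at 6 months after thinning. The edgeR counts moved more. They were 14 higher and 1 lower with DESeq2, 0 and 0 without the library term (no library block; 121 and 65 at an unadjusted p under 0.05) and 0 and 0 of 327 genes with at least 100 UMIs in all 4 sums. They were 509 and 430 with all galanin-zero cells, 31 and 13 after thinning to 5000 UMIs, and 15 and 4 with GAL of at least 10. Lower genes were 294 on UMI totals without TMM, 56 at a caliper of 0.01 and 58 with at least 10000 UMIs. Matching on UMIs and PRL share together gave 36 and 5, and 5 galanin-zero cells per galanin cell at 6 months gave 232 and 122; both were chosen after seeing the data. Genes 2-fold higher and lower at 3 months were 76 and 228 without TMM, 245 and 254 unmatched, 202 and 230 when matched on UMIs outside PRL and GAL, 76 higher after thinning, 43 lower with PRL share matched and 344 lower by mean per-cell CPM. At 6 months they were 18 and 61 without TMM, 2559 and 993 unmatched, where far more genes reached the UMI minimum, 58 and 45 when matched outside PRL and GAL, 2 and 5 after thinning, 17 higher with GAL of at least 5, 16 and 16 with at least 10, 60 lower at 15% PRL, 115 and 322 with 5 galanin-zero cells each, and 59 lower by mean per-cell CPM. Between ages, thinning left 25 higher and 291 lower. Signs turned for POMC (−0.089 at 15% PRL), CKS2 (0.23, all galanin-zero cells), FOSB (0.30, PRL share matched), CHGA (−0.045 at 3 months by mean per-cell CPM) and DRD2 (−0.12 without TMM, −0.12 unmatched). Beyond smaller sums or fewer genes, the cause was not tested. No paired analysis of the ages was possible because they have 1 library each and share fewer than 2 replicate numbers. The 14 cells of the 6-month library limit every comparison that uses it.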

Other observations

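Further genes passed the test that belong to no list used above and were chosen after their values were seen. CD9, a tetraspanin of the cell surface, stood in galanin and galanin-zero cells at 129 against 54.9 CPM at 3 months and 89.5 against 46.1 CPM at 6 months (fit 1.17 ± 0.16, edgeR adjusted p 1.6e-06). WFDC2, a secreted whey acidic protein domain protein, stood at 143 against 55.6 CPM at 3 months and 157 against 94.9 CPM at 6 months (fit 1.17 ± 0.15, edgeR adjusted p 1.1e-06). SPON2, a secreted matrix protein, stood at 290.0 against 135 CPM at 3 months and 104 against 54.2 CPM at 6 months (fit 1.06 ± 0.15, edgeR adjusted p 6.8e-06), and TNFRSF6B, a soluble decoy receptor for FAS ligand, at 54.6 against 11.97 CPM at 3 months and 23.6 against 10.8 CPM at 6 months (fit 2.07 ± 0.23, edgeR adjusted p 1.0e-08). CALB1, the calcium-binding protein calbindin, stood at 75.1 against 30.98 CPM at 3 months and 32.99 against 17.6 CPM at 6 months (fit 1.23 ± 0.19, edgeR adjusted p 1.9e-05). All 5 were higher in value in both libraries, and with PRL share matched WFDC2 did not pass (edgeR adjusted p 0.25). DIO2, the deiodinase that activates thyroid hormone and 1 of 3 tested thyrotroph markers, was lower, at 92.3 against 181 CPM at 3 months and 240.4 against 291 CPM at 6 months (fit −0.69 ± 0.15, edgeR adjusted p 0.0045). With PRL share matched DIO2 did not pass (edgeR adjusted p 0.094), though its ratio there was −0.76.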
